A study of Drosophila melanogaster with 36 samples.

Results

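Whole heads of female Drosophila melanogaster of the genotype w1118, a white-eyed laboratory strain that lacks a working white gene, were compared at an age of 55 days between zeitgeber times ZT16 and ZT4. The comparison holds 6 of the 36 libraries of the series, 3 from ZT16 and 3 from ZT4, chosen by their labelled age and time of collection, and it covers every miRNA arm and piRNA cluster that the tables list. The series as a whole sampled heads at 55 days and at 5 days of age at 6 times of day that lie 4 h apart, with small RNA read from 400 heads per library. ZT counts hours from lights on by convention, so the times compared lie 12 h apart, but the labels give no light schedule. They also do not say whether replicates came from separate cohorts of flies, so the p-values below rest on a spread between libraries that may be technical, which for the tests across features is estimated over all 36. The groups share genotype, sex, age and tissue, and no agent or transgene is named for either.

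MicroRNAs (miRNAs) are short RNAs cut from hairpin precursors, each of which can yield a 5p and a 3p arm, and a loaded arm represses messenger RNAs that match its seed. In the fly head the clock of period and timeless is tuned by several of them, and some miRNA clusters are transcribed in a daily rhythm while the mature arms, which are long-lived, change less. PIWI-interacting RNAs (piRNAs) come from long genomic clusters, silence transposons and are made mainly in the gonads, so heads hold few of them.

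The libraries held 16.2 to 23.6 M miRNA counts and 267648 to 343389 piRNA counts (267648 to 343389 at ZT16 and 289152 to 318840 at ZT4). Of 673 features in the miRNA tables, 591 had a count in the 6 libraries and 363 passed the filter on low counts, which was applied over all 12 groups of age and time and not to the pair compared. These 363 are 296 arms with a miRNA name and 67 features whose identifier begins with rr and names no miRNA. Levels are CPM, the counts of an arm relative to the miRNA counts of its library after TMM scaling. Of the arms of head tissue, miR-210-3p, a photoreceptor miRNA, was abundant. It had 32006, 30696 and 27684 CPM at ZT16, against 29583, 29286 and 27186 CPM at ZT4. miR-124-3p, which marks neurons, was less abundant, with 492, 370 and 468 CPM at ZT16, against 407, 381 and 416 CPM at ZT4. The follicle-cell arm miR-318-3p had 11.7, 10.3 and 13.6 CPM at ZT16, against 14.4, 22.8 and 12.7 CPM at ZT4, and the ovary arm miR-989-3p was below 1 CPM in all 6. Elsewhere in the series 3 libraries, none of them compared here, are rich in ovary miRNAs (replicate 1 of old ZT0 and replicate 3 of both young ZT4 and young ZT8).

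No miRNA passed the test between ZT16 and ZT4 in old heads. With edgeR's quasi-likelihood test and Benjamini-Hochberg adjustment, 0 of 363 features (0%) were called at an adjusted p under 0.05, and the lowest adjusted p was 0.368. At an unadjusted p under 0.05 there were 14 features (3.86%), 7 higher at ZT16 (1.93%) and 7 lower (1.93%). DESeq2 also called 0, with 14 at an unadjusted p under 0.05, and limma on log2(RPM + 1) called 0, with 9. The 3 libraries of ZT16 lay all above those of ZT4 for 12 features (3.31%) and all below for 11 (3.03%), 23 in all (6.34%), but these counts depend on the scaling. They were 8 and 18 with RLE factors, 12 and 16 with library totals alone, and 7 and 29 when libraries were scaled to the larger total behind the deposited piRNA RPM. Of that larger total, which the files do not define, miRNA counts made up 24.2% to 27.4% in the 6 libraries.

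The sizes of the differences were small where levels were high. The log2 difference, ZT16 minus ZT4, had a median of 0.02 over the 363 features, with quartiles of -0.15 and 0.16; 196 were above 0 and 167 below. The median was -0.04 under the larger total, the only scaling of 4 that put it below 0. A fitted difference of more than 2-fold was found for 14 features, and 0 of these were among the 166 with a mean of at least 10 CPM. The 95% interval of the difference lay within 2-fold in either direction for 145 of those 166 and within 1.5-fold for 96. Rare arms were bounded less often, and over all 363 features the same counts were 233 and 128. In whole heads, fewer cells of a type and less RNA per cell cannot be told apart.

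**Figure D1:**
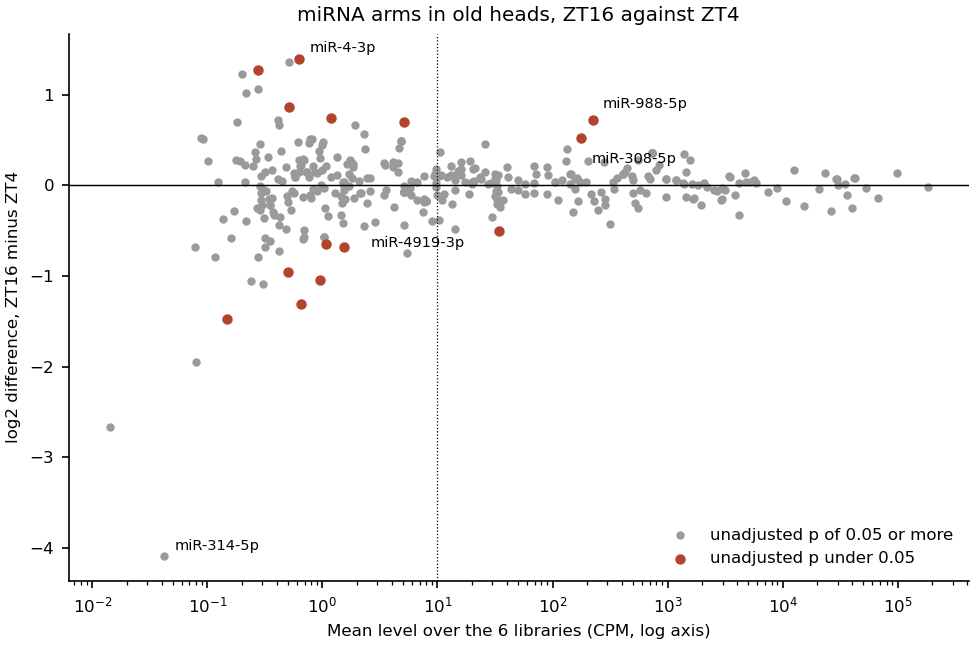
Fitted log2 difference (ZT16 minus ZT4, y axis) against the mean level over the 6 old head libraries (CPM, log x axis) for the 363 tested miRNA features, 1 point each; the dotted line is at 10 CPM. The 14 features with an unadjusted p under 0.05 are in red, 3 of them right of the dotted line, and the spread narrows as the level rises.

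The smallest p belonged to rr413031-1a-3p-miR, a rare feature with no miRNA name. It had 0.392, 0.512 and 0.233 CPM at ZT16, against 1.53, 0.596 and 0.674 CPM at ZT4, and the groups did not overlap. The log2 difference was -1.31 ± 0.36 (SE; unadjusted p = 0.00102, adjusted p = 0.368 by edgeR). It was -0.75 without ZT4 replicate 1, the highest library, and between -1.53 and -1.02 without any other. Its difference in young heads was 0.38, and the old minus young difference was -1.68 (adjusted p = 0.360).

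Only 3 of the 14 features with an unadjusted p under 0.05 had a mean of at least 10 CPM. Of all 186 hairpins placed, 70 lie in an intron, and so do the hairpins of these 3 arms, in protein-coding genes. The lower arm was miR-4919-3p, with 24.98, 30.9 and 29.8 CPM at ZT16, against 39.8, 45.9 and 35.5 CPM at ZT4. All 3 libraries of ZT16 lay below all 3 of ZT4. The log2 difference was -0.50 ± 0.17 (SE; unadjusted p = 0.00718, adjusted p = 0.909 by edgeR). Its hairpin lies at 2R:15945887-15945946 on the plus strand (BDGP6), in an intron of Cyp4aa1, which encodes a cytochrome P450.

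The higher arms were miR-988-5p and miR-308-5p. miR-988-5p had 195, 358 and 282 CPM at ZT16, against 228, 152 and 126 CPM at ZT4, a log2 difference of 0.72 ± 0.29 (SE; unadjusted p = 0.0189, adjusted p = 0.909 by edgeR). The groups overlapped, since ZT4 replicate 1 lay above ZT16 replicate 1. The hairpin (2R:12158872-12158970, minus strand) lies in an intron of Prp8, a core protein of the spliceosome. miR-308-5p had 156, 250 and 224 CPM at ZT16, against 156, 145 and 136 CPM at ZT4, and the difference was 0.53 ± 0.23 (SE; unadjusted p = 0.0328, adjusted p = 0.909 by edgeR). ZT16 replicate 1 was level with the highest library of ZT4, so the separation rests on the other two libraries. Its hairpin (2R:14215802-14215864, minus strand) lies in an intron of RpS23, which encodes a protein of the small ribosomal subunit.

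The time courses of old heads place these values among the other hours. miR-4919-3p averaged 47.4 ± 13.4 CPM at ZT0, 40.4 ± 5.203 at ZT4, 39.8 ± 4.48 at ZT8, 33.9 ± 6.11 at ZT12, 28.5 ± 3.14 at ZT16 and 39.6 ± 0.516 at ZT20 (SD, n = 3 each). ZT16 was its lowest time point. For miR-988-5p, ZT16 was the highest time point, at 278 ± 81.8 CPM, against 169 ± 53.0 CPM at ZT4 and 169 to 199 CPM at the other 4 time points. miR-308-5p was likewise highest at ZT16, at 210 ± 48.5 CPM, against 146 ± 9.78 CPM at ZT4 and 128 to 159 CPM at the other times. These arms were picked for a small p between ZT16 and ZT4. An extreme mean at ZT16 is thus partly built into the choice and is no separate result. The differences between neighbouring time points were not tested.

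Of the other named arms of at least 10 CPM, none reached an unadjusted p of 0.05. miR-970-3p, from an intron of Tomosyn, which encodes a brake on synaptic vesicle release, had 4257, 3647 and 3204 CPM at ZT16, against 4126, 4528 and 5254 CPM at ZT4 (log2 difference -0.32 ± 0.17). ZT16 replicate 1 lay inside the range of ZT4. miR-929-3p, from an intron of cpx, the complexin gene that acts in synaptic vesicle fusion, had 110, 205 and 141 CPM at ZT16, against 144, 117 and 84.3 CPM at ZT4 (0.40 ± 0.22), and these groups overlapped too. miR-981-5p was lower in all 3 libraries of ZT16, with 275, 270 and 246 CPM, against 323, 289 and 307 CPM at ZT4 (-0.21 ± 0.14). miR-79-3p and miR-9b-5p, which are cut from a run of 4 hairpins in an intron of grp, the checkpoint kinase gene grapes, were higher in all 3. miR-79-3p had 11.2, 11.9 and 12.3 CPM at ZT16, against 8.16, 8.30 and 10.9 CPM at ZT4 (0.37 ± 0.21). miR-9b-5p had 809, 1082 and 808 CPM at ZT16, against 756, 749 and 802 CPM at ZT4 (0.23 ± 0.14). Of the 8 tested arms of that run, 5 were above 0 and 3 below. Among the rest, miR-993-3p (-0.25), miR-957-3p (-0.22), miR-92b-3p (-0.43), miR-275-5p (-0.30), miR-316-5p (-0.19) and miR-285-5p (-0.22) had lower means at ZT16. miR-306-5p (0.29), miR-1001-5p (0.27), which lies in the 3′ UTR of tau, and miR-281-3p (0.13) had higher means.

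**Figure D2:**
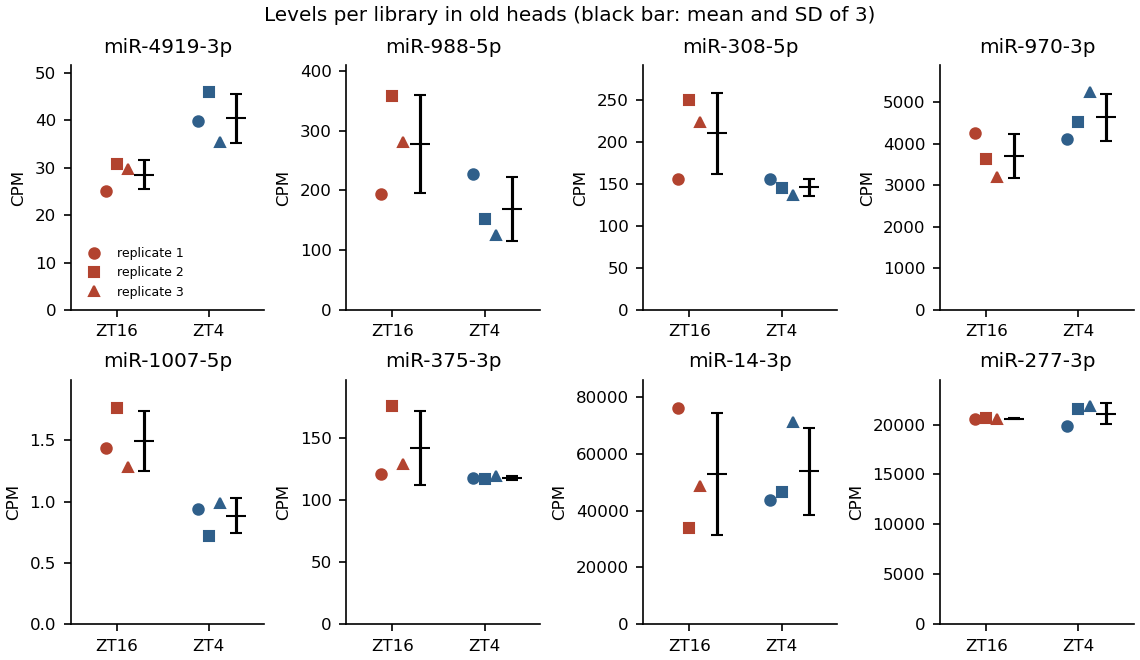
Levels (CPM, y axes from 0) of 8 miRNA arms in each of the 3 ZT16 and 3 ZT4 libraries of old heads, with symbols for the replicate number and a black bar for the mean and SD. miR-4919-3p and miR-1007-5p separate the groups, as do miR-308-5p and miR-375-3p by a narrow margin. For miR-988-5p only ZT4 replicate 1 and ZT16 replicate 1 cross, while miR-14-3p overlaps widely. miR-277-3p lies between 19864 and 21864 CPM in all 6.

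Mirtrons have hairpins that are whole short introns, released by splicing instead of by Drosha. Among 22 tested arms, 3 had an unadjusted p under 0.05, beside 14 of 363 features (3.86%). All 3 were higher at ZT16, with an adjusted p of 0.909 by edgeR. miR-1007-5p had 1.44, 1.76 and 1.28 CPM at ZT16, against 0.940, 0.723 and 0.991 CPM at ZT4 (0.75 ± 0.28). miR-1016-3p, from an intron of the mitochondrial fusion gene Opa1, had 0.567, 0.512 and 0.895 CPM at ZT16, against 0.346, 0.383 and 0.357 CPM at ZT4 (0.87 ± 0.35). Both had non-overlapping groups, at levels under 2 CPM. Non-overlap was found for 2 of the 22 mirtron arms, beside 23 of 363 features (6.34%). miR-1004-3p had 10.3, 3.75 and 4.94 CPM at ZT16, against 3.91, 3.11 and 4.76 CPM at ZT4 (0.70 ± 0.28), and ZT16 replicate 1 alone lay far above the rest. miR-1007-3p, the more abundant arm of its hairpin, had 38.1, 24.6 and 26.5 CPM at ZT16, against 19.3, 19.1 and 26.8 CPM at ZT4 (0.45 ± 0.25). Of 22 tested mirtron arms, 0 were called and 19 were above 0, with a median log2 difference of 0.19, beside 196 of 363 and 0.02 over all features. Under the larger total, 14 of the 22 were above 0 and the median was 0.13.

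The list of miRNAs tied to the clock and to rest and activity had 27 tested arms, of which 0 were called. Of the 27, 24 were above 0 and 3 below, with a median of 0.14. Over all features 196 of 363 were above 0, with a median of 0.02. Under the larger total the list had 18 of 27 above 0 and a median of 0.07, beside 147 of 363 and -0.04. Its members are not all independent, since the 5p arms of miR-276a and miR-276b had the same value, 0.04. miR-276a-3p, which represses timeless, had 45429, 44174 and 41564 CPM at ZT16, against 38701, 42674 and 42692 CPM at ZT4, a log2 difference of 0.08 with a 95% interval of -0.12 to 0.28. miR-276b-3p, whose sequence is nearly the same so that reads may be shared, had 44354, 42751 and 40373 CPM at ZT16, against 37781, 41474 and 41462 CPM at ZT4 (0.08, interval -0.13 to 0.28). Both intervals lie well inside 1.5-fold. let-7-5p, which acts on clockwork orange and on developmental timing, had 24233, 25572 and 23476 CPM at ZT16, against 22225, 20248 and 24058 CPM at ZT4 (0.14, interval -0.27 to 0.55). bantam-3p, a growth regulator that also binds Clock messenger RNA, had 73705, 68354 and 48977 CPM at ZT16, against 53796, 77121 and 80159 CPM at ZT4 (-0.14, interval -0.53 to 0.24). The groups overlapped, with the lowest library at ZT16 and the highest at ZT4. miR-279-3p, which sets rest-activity rhythms through the JAK/STAT ligand Unpaired, had 2220, 996 and 1409 CPM at ZT16, against 1012, 1046 and 1566 CPM at ZT4 (0.35, interval -0.18 to 0.89). Its higher mean at ZT16 rests on replicate 1, and without that library the log2 difference was -0.0011.

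miR-375-3p, known in mammals from the endocrine pancreas, had 121, 176 and 129 CPM at ZT16, against 117, 116 and 119 CPM at ZT4. The groups did not overlap, by a narrow margin, and the log2 difference was 0.27 ± 0.16. miR-263b-5p had 85.5, 131 and 72.8 CPM at ZT16, against 121, 70.7 and 59.2 CPM at ZT4 (0.20 ± 0.50), and miR-263a-5p had 40387, 34347 and 29055 CPM at ZT16, against 49256, 33303 and 29512 CPM at ZT4 (-0.11 ± 0.49). Both protect sense organs from cell death, and both spread more within a time point than between the time points. miR-92a-3p, at 1.92, 1.31 and 2.02 CPM at ZT16, against 1.88, 2.04 and 0.951 CPM at ZT4, was rare in these heads. The cluster of miR-959 to miR-964, whose transcription cycles in the adult head fat body, was close to the limit of detection. Of its 12 arms 4 were tested and all 4 were above 0 under each of 4 scalings, with a median of 0.40. The scalings moved that median only between 0.33 and 0.41, so the agreement among them says little. Counts were few, and miR-959-3p had 3, 2 and 2 at ZT16, against 2, 2 and 1 at ZT4. The 4 arms are also counted in the clock list above. Their summed level was 1.09, 0.796 and 0.817 CPM at ZT16, against 0.693, 0.723 and 0.476 CPM at ZT4. The largest, miR-964-5p, had 0.436, 0.171 and 0.272 CPM at ZT16, against 0.148, 0.128 and 0.159 CPM at ZT4 (1.02 ± 0.54, unadjusted p = 0.0686).

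**Figure D3:**
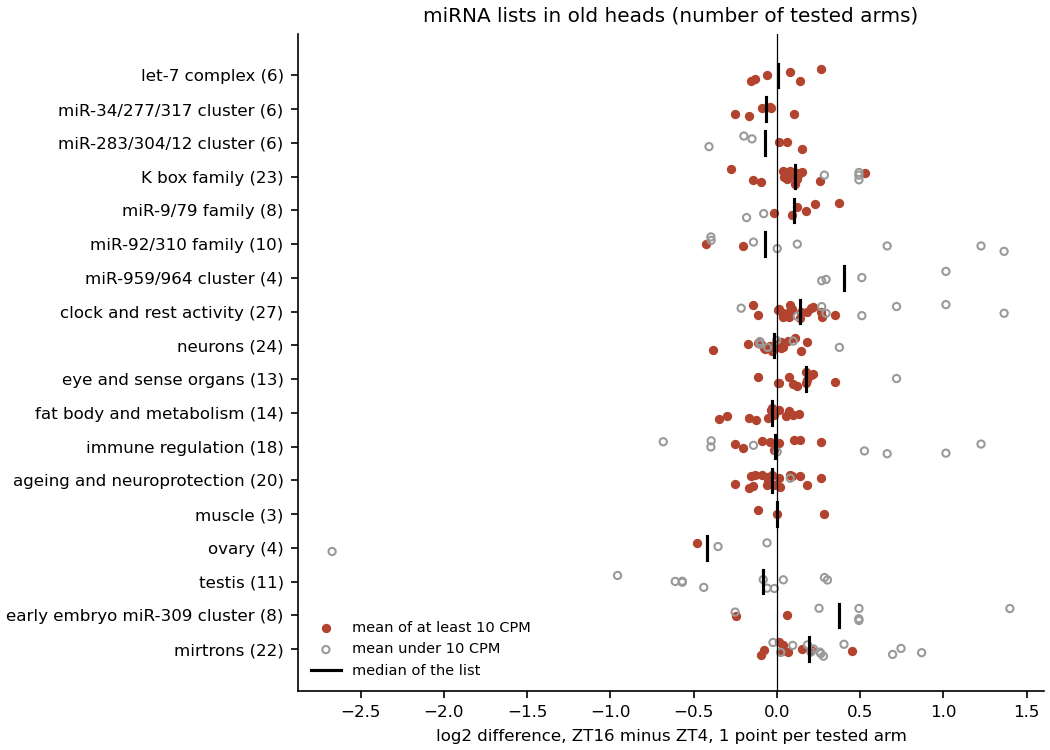
Fitted log2 differences (ZT16 minus ZT4, x axis) of the tested arms of 18 miRNA lists in old heads, 1 point per arm, filled where the mean over 6 libraries was at least 10 CPM; the black bar is the list's median and the number tested is in brackets. In the clock and rest-activity list 24 of 27 points lie above 0, beside 196 of 363 over all features. The points beyond 1 in any list are open ones.

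In the list for eye and sense organs 12 of 13 tested arms were above 0 (median 0.18) and 0 were called. Under the larger total 9 were above 0. Over all features these counts were 196 and 147 of 363. The eye list shares miR-210, miR-263a, miR-263b, miR-279 and miR-996 with the clock list. miR-9a-5p, which limits the number of sense organ precursors, had 12558, 15616 and 11621 CPM at ZT16, against 11025, 11489 and 12729 CPM at ZT4 (0.18 ± 0.13). The neuronal list had 11 of 24 tested arms above 0 (median -0.02) and 0 called. From that list, miR-987-5p had 7524, 13586 and 8870 CPM at ZT16, against 10547, 11386 and 11906 CPM at ZT4 (-0.17 ± 0.16).

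The miRNAs tied to ageing and neuroprotection, of interest in heads of this age, had 8 of 20 tested arms above 0 (median -0.03) and 0 called. miR-34-5p, which protects ageing neurons, had 30988, 40568 and 38298 CPM at ZT16, against 48390, 46814 and 35538 CPM at ZT4 (-0.25 ± 0.19). ZT4 replicate 3 lay inside the range of ZT16. miR-277-3p, a regulator of branched-chain amino acid breakdown that is encoded in the same cluster, had 20588, 20636 and 20541 CPM at ZT16, against 19864, 21556 and 21864 CPM at ZT4 (-0.04, interval -0.30 to 0.23). Of the 6 arms of this cluster, which also holds miR-317, 5 were below 0 under each of the 4 scalings, with medians between -0.06 and -0.14.

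The K box family, whose seeds match the K box motif of Notch target genes, had 20 of 23 tested arms above 0. The median was 0.11 and 0 were called. Under the larger total 14 of 23 were above 0, with a median of 0.04. Over all features 196 of 363 were above 0, and 147 under the larger total. The 23 include copies of miR-13b-3p, miR-2a-3p, miR-2b-3p and miR-6-3p that share reads. The summed level of the family nevertheless ran the other way. It was 30346, 34928 and 32012 CPM at ZT16, against 38162, 39330 and 34224 CPM at ZT4. The sum is carried by miR-11-3p, which lies in an intron of E2f1 and restrains E2F1-driven cell death. miR-11-3p had 21304, 26784 and 23468 CPM at ZT16, against 29563, 31381 and 25816 CPM at ZT4, with a log2 difference of -0.28 ± 0.17. The runs of hairpins of miR-13b-1, miR-13a and miR-2c (3R:15417408-15417845, minus strand) and of miR-2a-2, miR-2a-1 and miR-2b-2 (2L:19569490-19570264, minus strand) each had 7 of 7 tested arms above 0, with values from 0.08 to 0.29 and from 0.04 to 0.26, but under the larger total the second run had 2 of 7 above 0. Some of these arms are copies that share reads, and with each arm counted once the counts were 6 of 6 and 5 of 5, and 2 of 5 for the second run under the larger total. Over all 97 hairpins with both arms tested, the arms had the same sign in 56.

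The metabolic miRNAs included arms that varied widely between libraries of the same time point. In the fat body and metabolism list 5 of 14 tested arms were above 0 (median -0.03) and 0 were called. miR-14-3p, which limits fat storage and acts in insulin-producing neurons, had 76135, 33721 and 48652 CPM at ZT16, against 43719, 46419 and 71287 CPM at ZT4 (-0.03 ± 0.24). The highest and the lowest of the 6 libraries were both from ZT16. miR-33-3p, whose hairpin lies within the gene of the lipid regulator SREBP, had 10.9, 27.8 and 39.6 CPM at ZT16, against 40.2, 44.3 and 15.4 CPM at ZT4 (-0.35 ± 0.54). It was the most variable of the 166 arms within time points, with a pooled SD of 0.90 on the log2 scale. The most abundant arm, miR-8-3p, which promotes growth from the fat body, had 179113, 171065 and 193719 CPM at ZT16, against 162025, 192344 and 197052 CPM at ZT4 (-0.02 ± 0.16). miR-184-3p had 118049, 107586 and 81539 CPM at ZT16, against 97094, 95366 and 85854 CPM at ZT4 (0.14 ± 0.57). The SE comes from the fit over all 36 libraries, in which miR-184-3p averaged 229376 ± 248506 CPM (SD) at old ZT0. The groups overlapped for both miR-8-3p and miR-184-3p. The least variable arm was miR-277-3p, with a pooled SD of 0.053, followed by miR-10-3p at 0.059.

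The remaining lists held no called arm either. Medians were 0.01 for the let-7 complex (3 of 6 above 0), 0.10 for the miR-9/79 family (5 of 8), -0.07 for the miR-92/310 family (5 of 10), -0.07 for miR-283, miR-304 and miR-12 (3 of 6) and -0.01 for immune regulation (9 of 18). The let-7 and immune medians changed sign with the scaling. The early embryo cluster of miR-309 had 6 of 8 above 0 (median 0.37), but 3 of those are near-identical copies of miR-6-3p that share reads. The muscle list had 2 of 3 above 0, and its median of 0.004 was below 0 with RLE factors and under the larger total. miR-1-3p, the defining muscle arm, had 481, 777 and 544 CPM at ZT16, against 385, 644 and 454 CPM at ZT4 (0.28 ± 0.47). That SE also draws on libraries outside the comparison, such as those of young ZT0 at 1266 ± 1583 CPM (SD).

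Markers of gonads were scarce in both groups. Of the 6 ovary arms 4 were tested and all 4 were below 0 (median -0.42, called 0). Only 1 of the 4 had a mean of at least 10 CPM. miR-994-3p had 2 counts in ZT4 replicate 2 and none in any other of the 6 libraries. The summed level of the 4 arms was 11.9 to 14.5 CPM at ZT16 and 14.1 to 24.5 CPM at ZT4. The upper value comes from ZT4 replicate 2. Of the 26 testis arms 11 were tested, 3 were above 0 (median -0.08) and 0 were called, with sums of 14.04 to 15.8 CPM at ZT16 and 14.7 to 17.9 CPM at ZT4. Their part in the other results was not tested.

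The leading differences among the 6 libraries did not follow the time of day. In a principal component analysis of the 166 arms, component 1 took 44.3% of the variance. Its scores were 2.66, -3.04 and 0.49 at ZT16, against -0.92, -1.29 and 2.11 at ZT4, so that ZT16 replicates 1 and 2 stood at opposite ends. Component 2 took 22.02% and did not separate the times either, with 1.48, 2.09 and -0.64 at ZT16, against -0.65, -2.05 and -0.24 at ZT4. The arms with the largest weights on component 1 were miR-33-3p, miR-14-3p, miR-279-3p, miR-2a-1-5p and miR-9a-3p, and miR-988-5p was among the first 10. The median SD within a group was 0.22 on the log2 scale at ZT16 and 0.14 at ZT4, and 113 of the 166 arms had the larger SD at ZT16. All 6 pairs of libraries from the same time point correlated across arms with r from 0.991 to 0.998, and none was a repeat of another, since chi-square divided by its degrees of freedom was 716 or more for each pair.

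**Figure D4:**
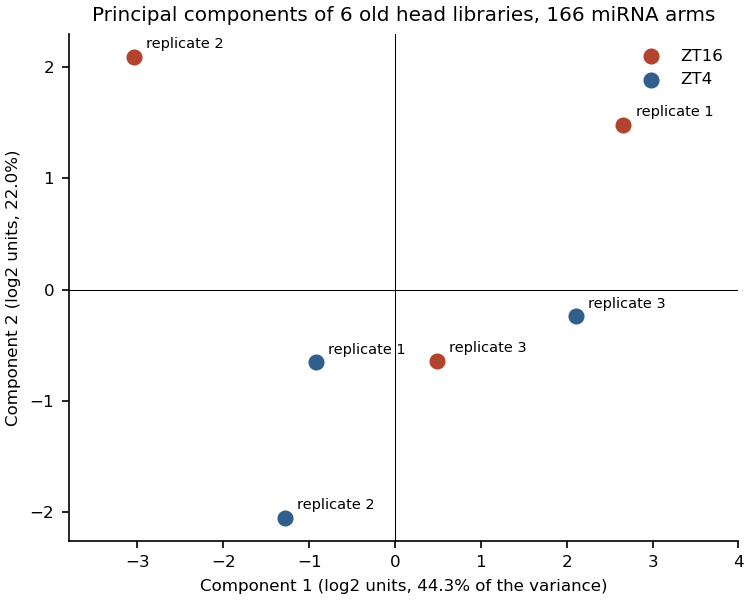
Scores of the 6 old head libraries on components 1 (x axis, 44.3% of the variance) and 2 (y axis, 22.02%) from the log2 CPM of 166 miRNA arms. The ZT16 libraries span component 1 from -3.04 to 2.66 and those of ZT4 lie between them on that axis.

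The piRNA tables list 56 clusters, numbered without a genome position, in a pair of column sets whose meaning the files do not state, called here the first and the second set. That gives 112 features, of which 101 had a count in the 6 libraries and 85 were tested. With edgeR's quasi-likelihood test 0 of 85 (0%) were called, and 0 had an unadjusted p under 0.05. DESeq2 and limma also called 0 and had 0 at an unadjusted p under 0.05. The first set held nearly all counts, 265005 to 340421 per library, while the second held 2643 to 3017. All 3 libraries of ZT16 lay above those of ZT4 for 12 features (14.1%) and below for 3 (3.53%). With RLE factors these counts were 8 and 1, with totals alone 7 and 3, and under the larger total 2 and 0.

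A few clusters dominated the head piRNAs. Cluster 51 of the first set held 52.8%, 52.8% and 53.5% of piRNA counts at ZT16, against 53.2%, 53.5% and 53.3% at ZT4. Cluster 90 held 28.7%, 28.6% and 28.9% at ZT16, against 28.5%, 28.8% and 28.7% at ZT4. Cluster 91 held 8.00%, 7.76% and 7.64% at ZT16, against 8.01%, 8.30% and 7.90% at ZT4. The time points overlapped for all of these clusters. Cluster 53 held 6.56%, 6.33% and 6.12% at ZT16, against 6.03%, 5.76% and 6.21% at ZT4. As a share it overlapped too. After TMM scaling the 3 libraries of ZT16 lay above those of ZT4 for clusters 51, 90 and 53, but not for cluster 91. The order of the libraries at this size of difference thus depends on the scaling.

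Among features with a mean of at least 10 counts, small clusters of the second set had the smallest p-values. Cluster 55 had 12.95, 8.64 and 15.1 counts at ZT16, against 8.38, 7.57 and 8.98 counts at ZT4, and a log2 difference of 0.60 ± 0.44 after scaling. Cluster 77 had 84.1, 64.2 and 70.4 counts at ZT16, against 56.8, 67.7 and 41.2 counts at ZT4 (0.44 ± 0.45). Both had non-overlapping levels after TMM scaling, on few counts. Cluster 26 had 54.6, 52.0 and 53.1 counts at ZT16, against 80.5, 66.1 and 56.6 counts at ZT4 (-0.29 ± 0.31). Cluster 17 had 15.8, 11.5 and 8.83 counts at ZT16, against 16.0, 17.0 and 16.0 counts at ZT4 (-0.35 ± 0.63).

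The precision of the piRNA test depended on which libraries shared the estimate of the spread. With all 36, the 95% interval lay within 2-fold for 33 of 85 features. Without the 3 libraries rich in ovary miRNAs it did so for 61 of 71, and with the 6 compared libraries alone for 59 of 60. The filter on low counts was applied anew in each fit, so these counts also reflect which features were tested. In these fits 0 features were called, and at an unadjusted p under 0.05 there were 0 without the 3 libraries and 3 with the 6 alone, where the lowest adjusted p was 0.894. The miRNA intervals shifted too. They lay within 2-fold for 233 of 363 features with all 36 libraries and for 257 of 309 with the 6 alone, again with the filter applied anew.

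**Figure D5:**
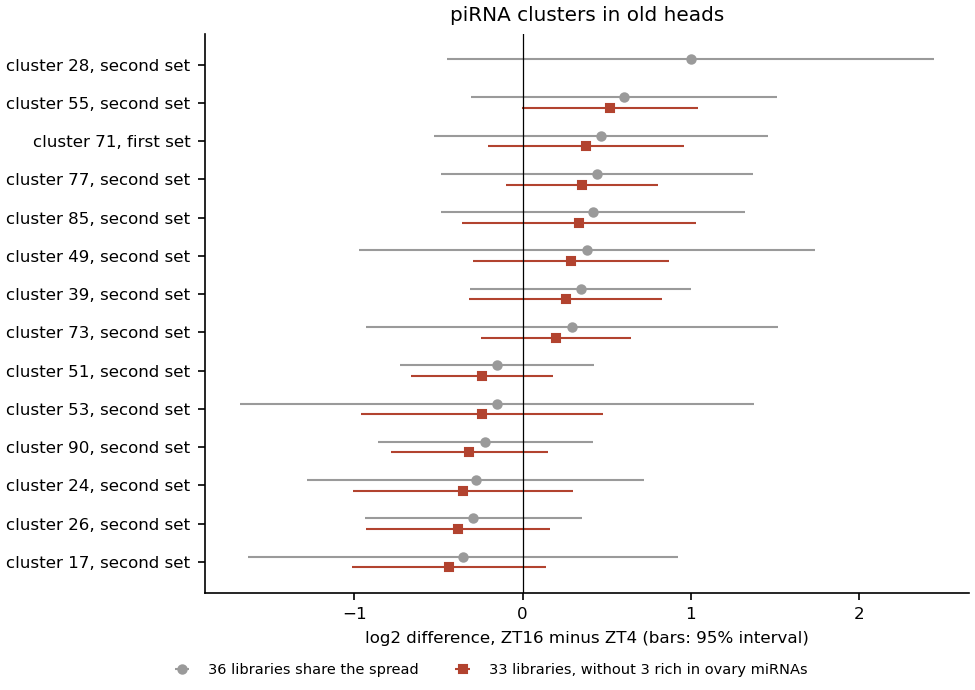
Fitted log2 differences (ZT16 minus ZT4, x axis) with 95% intervals for 14 piRNA cluster features in old heads, from the fit over 36 libraries (grey) and from the fit without 3 libraries rich in ovary miRNAs (red; cluster 28 was not tested there). All intervals cross 0, and the red ones are narrower.

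No measure of the makeup of the small RNA passed a test between the times. There were 15.3, 16.5 and 14.3 piRNA counts per 1000 miRNA counts at ZT16, against 16.0, 14.4 and 12.6 at ZT4 (log2 difference 0.11, exact 2-sided permutation p = 0.5). The miRNA share of the total behind the piRNA RPM was 24.9%, 24.2% and 24.5% at ZT16, against 24.7%, 27.4% and 25.8% at ZT4 (-0.08, exact permutation p = 0.2). The piRNA share of that total averaged 0.378% at ZT16 and 0.372% at ZT4 (exact permutation p = 0.8). Features whose identifier begins with rr took 0.571%, 0.672% and 0.465% of miRNA counts at ZT16, against 0.538%, 0.334% and 0.479% at ZT4 (0.35, exact permutation p = 0.3). The second set took 0.864%, 0.987% and 0.962% of piRNA counts at ZT16, against 0.927%, 0.940% and 0.935% at ZT4 (exact permutation p = 1). With 3 against 3 libraries the smallest p possible is 0.1, and after adjustment over the 5 measures none was below 0.75.

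The same times were set against each other in heads of 5-day-old flies by a test of the difference between the differences. Again 0 of 363 miRNA features (0%) and 0 of 85 piRNA features (0%) were called by edgeR, with 15 (4.13%) and 7 (8.24%) at an unadjusted p under 0.05, and DESeq2 and limma also called 0. In the young comparison alone, 21 of 85 piRNA features (24.7%) had an unadjusted p under 0.05 by edgeR, and 0 were called. Without the 3 libraries rich in ovary miRNAs, the lowest adjusted p of the piRNA test between ages was 0.984 by edgeR, against 0.489. Those 3 include young ZT4 replicate 3. Among miRNA features, the smallest p between the ages belonged to miR-4-3p of the early embryo cluster. It had 1.83, 0.455 and 0.467 CPM at ZT16, against 0.396, 0.170 and 0.476 CPM at ZT4 in old heads, and 0.342, 0.252 and 0.375 CPM at ZT16, against 0.960, 0.445 and 1.40 CPM at ZT4 in young heads. The old minus young difference was 2.90 on the log2 scale (adjusted p = 0.281). Old ZT16 replicate 1 and young ZT4 replicates 1 and 3 stood out at these very low levels.

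miR-286-3p, which helps clear maternal messages in the embryo, had 36.01, 31.3 and 29.1 CPM at ZT16, against 39.9, 41.4 and 32.9 CPM at ZT4 in old heads (-0.24 ± 0.38). In young heads it had 71.0, 40.0 and 35.2 CPM at ZT16, against 240, 41.2 and 212 CPM at ZT4, and it was the 1 feature called in the young comparison (-1.75, adjusted p = 0.0425 by edgeR; 0.275% of 363, with 22 features, or 6.06%, at an unadjusted p under 0.05). The test of the difference gave 1.51 with an adjusted p of 0.602. Without young ZT4 replicate 2, miR-286-3p, miR-4-3p and 3 copies of miR-6-3p were called, at an adjusted p of 0.0212. Those calls depend on which young libraries are kept. The differences in old heads also enter them, at 1.40 for miR-4-3p and 0.49 for the copies of miR-6-3p. Leaving out 1 library, the old difference of miR-4-3p fell as low as 0.41. The ovary arm miR-318-3p had 16.8, 15.8 and 460 CPM in replicates 1, 2 and 3 of young ZT4. The cause of the high miR-286-3p in young ZT4 replicates 1 and 3 was not tested. The 3 arms of at least 10 CPM with an unadjusted p under 0.05 in old heads had young differences of -0.001 for miR-4919-3p, -0.08 for miR-988-5p and 0.13 for miR-308-5p, but the tests between the ages did not pass (adjusted p of 0.873 for miR-4919-3p).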

How the data were processed

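Small RNA was sequenced with Illumina TruSeq libraries and an oligonucleotide that blocks 2S ribosomal RNA, per the labels' protocols. Bowtie and the builds BDGP6 and dm6 are named in the submitters' processing notes, without versions. The authors deposited expected counts (with fractions) per miRNA arm and per piRNA cluster, and RPM tables of both; the miRNA RPM uses the miRNA total, the piRNA RPM a larger total. No deposited column was left out.

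Rounded counts went into edgeR 4.0.16 under R 4.3.3 (TMM, filterByExpr, glmQLFit robust) over 36 libraries in 12 groups, each table separately, with Benjamini-Hochberg adjustment at 0.05. SE is the log2 difference divided by the root of the F statistic, and 95% intervals use it; p-values of low counts can be larger than those intervals imply, since edgeR bounds them by the counting error. Alternatives used DESeq2 1.42.0 and limma 3.58.1. The steps were tested on simulated data. Named features are those of smallest p (mean of at least 10 CPM), the 3 smallest p of each list, the 6 most abundant and 14 fixed arms; for piRNA, 5 in each direction, and 5 of each old against young test. Other arms are named where a sentence singles them out, after their values were seen. Members and lists were chosen with earlier results of these data known. Hairpins were placed by name with the Ensembl annotation of BDGP6, 296 of 296 arms matched. Genomic copies of an arm share reads and are uncertain. Counting intervals cover counting error only. No outlier test was made, since each group has 3 libraries. Mature sequences were not used here.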

Additional observations from a re-analysis of the deposited data

How the results depend on the processing

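The count of called miRNA arms and piRNA clusters between ZT16 and ZT4 in old heads was 0 in the fit reported and in each of 21 miRNA and 20 piRNA alternatives: other scalings, filters, tools and sets of libraries, and each library left out. Unadjusted p-values under 0.05 numbered 5 (filter at 10 CPM) to 26 (no filter) for miRNA, and 0 to 3 for piRNA. The labels do not say whether the numbers shared by replicates pair the samples. Deviations of same-numbered libraries correlate at -0.15, 0.40 and 0.05 over 166 arms. Those of differently numbered libraries range from -0.52 to 0.50, so these values cannot settle it. A replicate block gave 0 calls in both tables and 20 unadjusted miRNA p-values under 0.05, against 14. For the old against young contrast, leaving out 1 library gave 0 to 5 miRNA calls and 0 to 1 piRNA call (cluster 26 of the second set, -1.55, adjusted p = 0.0378 by edgeR, without young ZT4 replicate 1). That fit kept young ZT4 replicate 3, which is rich in ovary miRNAs. Groups without overlap numbered 23 miRNA features, against 36 under the larger total, and 15 piRNA features, against 9 with RLE factors and 2 under the larger total; these scalings of non-overlap and of list medians were chosen after seeing the data.

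Of 99 named features 17 changed sign in some alternative, none of them called. miR-133-3p, at 0.0038, became -0.026 with RLE factors and with DESeq2, -0.024 with limma at either pseudocount, -0.0036 with no filter, -0.0071 with the filter at 10 CPM, -0.010 with old libraries only, -0.00088 with the 6 alone, -0.012 with the replicate block, -0.075 under the larger total, -0.013 without rr features and -0.037 with copies counted once. miR-8-3p became 0.0011 with library totals and 2.91e-06 with the filter at 10 CPM, miR-982-5p 0.00065 with library totals and 0.0069 or 0.0076 with limma, and miR-210-3p -0.00069 under the larger total. Leaving out 1 library, values ranged from -0.28 to 0.026 for bantam-3p, -0.27 to 0.16 for miR-133-3p, -0.38 to 0.26 for miR-14-3p, -0.23 to 0.17 for miR-263a-5p, -0.054 to 0.60 for miR-263b-5p, -0.022 to 0.82 for miR-274-3p, -0.049 to 0.022 for miR-277-3p, -0.0011 to 0.61 for miR-279-3p, -0.77 to 0.025 for miR-33-3p, -0.46 to 0.14 for miR-34-3p, -0.074 to 0.065 for miR-8-3p, -0.12 to 0.34 for miR-92a-3p, -0.12 to 0.077 for miR-982-5p, -0.34 to 0.23 for miR-984-3p, -0.68 to 0.0078 for miR-989-3p and -0.18 to 0.12 for miR-994-5p. The log2 difference of the piRNA share ranged from -0.070 to 0.079 and that of the second set's share from -0.035 to 0.061. The causes were not tested. The 95% interval lay within 2-fold for 145 of the 166 features of at least 10 CPM and for 233 of all 363.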
